A study of Mus musculus with 8 samples.

Results

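Out of 50683 regions formed by merging the ATAC-seq peaks of 7 libraries of mouse bone marrow stromal cells, 439 held a peak of ATAC1, ATAC5 and ATAC6 and of no other library, or 0.866% of all regions. Peaks that had at least 1 base in common were joined into 1 region, and the members were chosen by the peak calls, that is by the presence or absence of a peak in each library. The presence of these peaks is therefore a description and not a finding, and the same holds for their height in the 3 libraries. The study isolated PDGFRα+ and Sca-1+ stromal cells, lacking CD31, CD45 and Ter119, from the bone marrow of mice that the labels give as C57BL/6J (wild type, age 6 weeks), where the methods name C57BL/6JJcl, and asked how open chromatin differed among subpopulations. The labels name no treatment, transgene or deletion for any group. The methods also list a transgenic line that expresses EGFP, without saying which mice gave the ATAC-seq cells. All libraries were set against the same Input library. The GEO labels do not tie a title to a sorted subpopulation, so ATAC1, ATAC5 and ATAC6 are names of libraries here, and the cell types behind them cannot be checked from peak lists. Each title had 1 library, so that the spread between mice or cultures is unknown and no difference below has a test.

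ATAC-seq reads accumulate where the Tn5 transposase reaches DNA that is not wrapped in a nucleosome. In most cells such sites fall into a few classes. Promoters of housekeeping genes, often rich in G, C and CpG, are open in nearly every cell type, whereas enhancers lie away from start sites and are open in some cell types only. AP-1, a dimer of Fos and Jun proteins, binds many enhancers of mesenchymal cells, and CTCF binds insulator sites at which chromatin loops are anchored. GC boxes are bound by Sp1 and its relatives at promoters.

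The sequences of 10 members are printed here because the results below return to them: promoters that had no peak of another library near by, a member with an uneven read count, members with AP-1 or CTCF letters, and the members next to genes of stromal lineages. All are from build mm9, plus strand, with coordinates as the files give them. Capitals mark matches to the motifs listed further below, and a match is a run of letters, not a measured binding site. Where an exon lay in a member, only the part without exon is printed, and of long members at most 300 bases.
Exosc2 promoter, chr2:31526145-31526234: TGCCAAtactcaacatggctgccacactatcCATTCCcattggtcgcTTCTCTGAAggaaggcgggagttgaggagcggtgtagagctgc
Fgfr3 promoter, chr5:34064285-34064372: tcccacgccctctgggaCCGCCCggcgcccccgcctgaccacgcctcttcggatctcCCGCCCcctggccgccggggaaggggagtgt
Dynlt1a promoter, chr17:6317475-6317526: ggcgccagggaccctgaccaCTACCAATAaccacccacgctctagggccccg
Adck4 upstream, chr7:28016941-28017161: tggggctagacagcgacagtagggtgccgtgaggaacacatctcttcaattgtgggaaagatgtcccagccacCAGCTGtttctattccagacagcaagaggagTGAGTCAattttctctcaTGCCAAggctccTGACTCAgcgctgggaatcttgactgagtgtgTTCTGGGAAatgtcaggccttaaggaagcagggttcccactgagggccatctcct
Region 183474 bases from Samd9l, chr6:3151466-3151597: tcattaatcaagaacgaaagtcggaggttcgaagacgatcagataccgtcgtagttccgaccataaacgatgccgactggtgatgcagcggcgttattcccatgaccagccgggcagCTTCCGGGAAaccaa
Lmtk3 intron near Cyth2, chr7:53056749-53057048: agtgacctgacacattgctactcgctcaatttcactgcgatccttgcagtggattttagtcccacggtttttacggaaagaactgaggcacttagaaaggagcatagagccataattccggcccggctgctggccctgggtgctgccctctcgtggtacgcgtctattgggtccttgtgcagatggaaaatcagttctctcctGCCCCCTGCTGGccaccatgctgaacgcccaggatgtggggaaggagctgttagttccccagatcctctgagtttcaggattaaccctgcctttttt
Upstream of Ly6e, chr15:74754057-74754103: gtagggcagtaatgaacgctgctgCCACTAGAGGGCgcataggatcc
Zfp423 promoter, chr8:90482858-90483007: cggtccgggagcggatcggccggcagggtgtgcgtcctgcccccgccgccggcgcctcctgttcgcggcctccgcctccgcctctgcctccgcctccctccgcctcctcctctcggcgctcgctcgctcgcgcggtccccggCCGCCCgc
Sox5 intron, chr6:143816810-143816964: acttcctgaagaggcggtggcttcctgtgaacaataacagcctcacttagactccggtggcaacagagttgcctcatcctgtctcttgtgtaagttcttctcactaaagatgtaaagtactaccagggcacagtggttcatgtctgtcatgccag
Upstream of Thy1, chr9:43792534-43792833: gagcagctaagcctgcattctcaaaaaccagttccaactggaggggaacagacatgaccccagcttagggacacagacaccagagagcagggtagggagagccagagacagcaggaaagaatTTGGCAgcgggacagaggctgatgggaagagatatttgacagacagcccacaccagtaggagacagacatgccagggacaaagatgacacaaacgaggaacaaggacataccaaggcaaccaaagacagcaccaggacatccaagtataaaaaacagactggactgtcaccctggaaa
The Exosc2, Fgfr3, Dynlt1a, Zfp423 and Adck4 members were centred within 1000 bases of a start site, Adck4 at the edge of that window. The distances of the other 5 are given with their values below.

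How often libraries were called together was the first question. Exactly 3 libraries had a peak in 5880 regions, and there are 35 choices of 3 libraries. The choice of ATAC2, ATAC5 and ATAC6 came first with 3374 regions, that of ATAC1, ATAC5 and ATAC6 next with 439, and then that of ATAC1, ATAC4 and ATAC6 with 295, against a median of 41 regions per choice. ATAC1, ATAC5 and ATAC6 all had a peak in 13675 regions, of which 8428 were called in all 7 libraries, and the 439 made up 3.21%. A single further library was present in 957 regions for ATAC2, 158 for ATAC3, 143 for ATAC4 and 50 for ATAC7. Among regions with a peak of ATAC5 and ATAC6 and none of ATAC3, ATAC4 or ATAC7, 1152 had neither ATAC1 nor ATAC2, 439 had ATAC1 alone, 3374 had ATAC2 alone and 957 had both. These 4 sets share the libraries ATAC5 and ATAC6 and differ in ATAC1 and ATAC2, and they are used as the nearest comparison below.

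**Figure D1:**
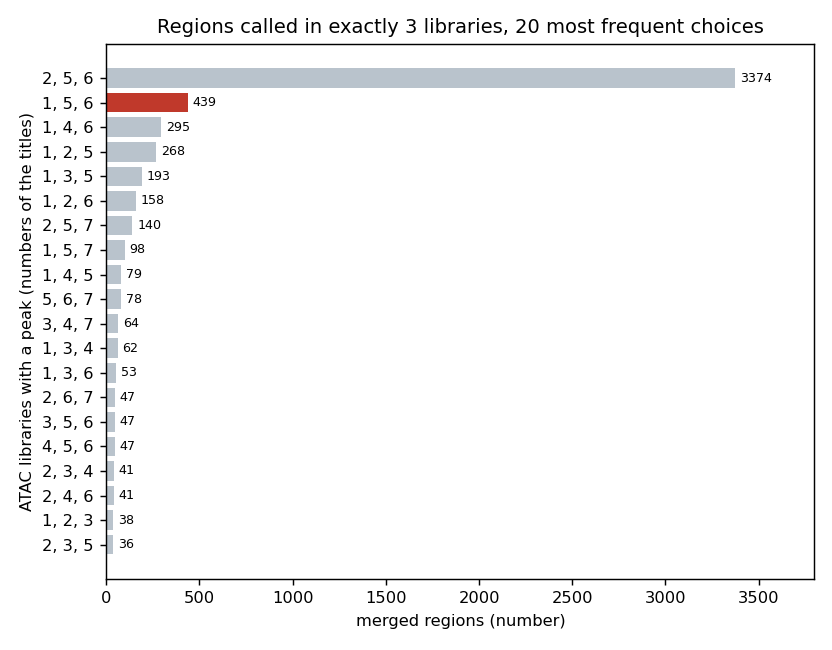
Number of merged regions (x axis) for the 20 most frequent choices of exactly 3 libraries (y axis, numbers of the titles). The choice of ATAC1, ATAC5 and ATAC6, in red, had 439 regions and stood behind ATAC2, ATAC5 and ATAC6 with 3374.

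The libraries differed in depth and in the number of peaks, from 15188 in ATAC7 to 32280 in ATAC2, with 24510 in ATAC1, 31479 in ATAC5 and 28969 in ATAC6. In the regions called in all 7 libraries, the reads summed to 4714898 in ATAC1, 5700480 in ATAC5 and 5812837 in ATAC6, and to between 2561419 and 3491538 in the other 4. The 3 libraries that define the members were thus the 3 with the most reads there. ATAC2, which had the most peaks and shared far more regions with ATAC5 and ATAC6 than ATAC1 did, was below ATAC1 in these reads. The lowest ranking statistic of a listed peak was 7.5 in ATAC5, 8 in ATAC6 and 8.5 in ATAC1, against 8 in ATAC2 and 10.5 in ATAC3, ATAC4 and ATAC7. In 434 of the 439 members the statistic was at least 10.5 in all 3 libraries. Absence of a peak in a library with fewer reads and closed chromatin cannot be told apart here.

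The members were mostly modest peaks from the lower part of each list. Their median rank stood at 72.1% of the list in ATAC1, 62.9% in ATAC5 and 68.0% in ATAC6, where 0 is the strongest peak. Only 20 members lay in the better 50% of all 3 lists, and 256 lay in the poorer 50% of all 3. In ATAC1 a member peak held a median of 79 library reads against 18 Input reads, in ATAC5 90 against 20 and in ATAC6 74.5 against 19. The medians over the whole lists were 140, 124 and 122 library reads. Per 1000 bases of the outer region, the wider stretch in which the authors counted reads, members had medians of 269.6 reads in ATAC1, 256.4 in ATAC5 and 241.7 in ATAC6. The Input gave 61.1, 59.9 and 62.4 per 1000 bases over the same stretches.

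Fold over Input, the authors' ratio of scaled library reads to Input reads, had a median of 5.34 in ATAC1, 7.31 in ATAC5 and 6.22 in ATAC6. The whole lists had 7.89, 10.9 and 10.1. The fold was highest in ATAC5 for 277 members (63.1%), in ATAC6 for 122 (27.8%) and in ATAC1 for 40 (9.11%), an order that the scale factors of 1.71, 1.57 and 1.23 share. A fold of at least 5 in each of the 3 libraries was found in 222 members, or 50.6%, beside 82.1% of all 13675 regions with peaks of the 3 libraries. Since low height favours absence elsewhere, nothing is read from that difference. The members' read densities had a Spearman rho of 0.390 for ATAC1 and ATAC5, 0.423 for ATAC1 and ATAC6 and 0.493 for ATAC5 and ATAC6. Peak calls of these libraries chose the members, so the values describe the members only and not how alike the libraries are. The points share the Input, sequence and region length, and Input density itself had a rho of 0.914 to 0.917 between overlapping outer regions.

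**Figure D2:**
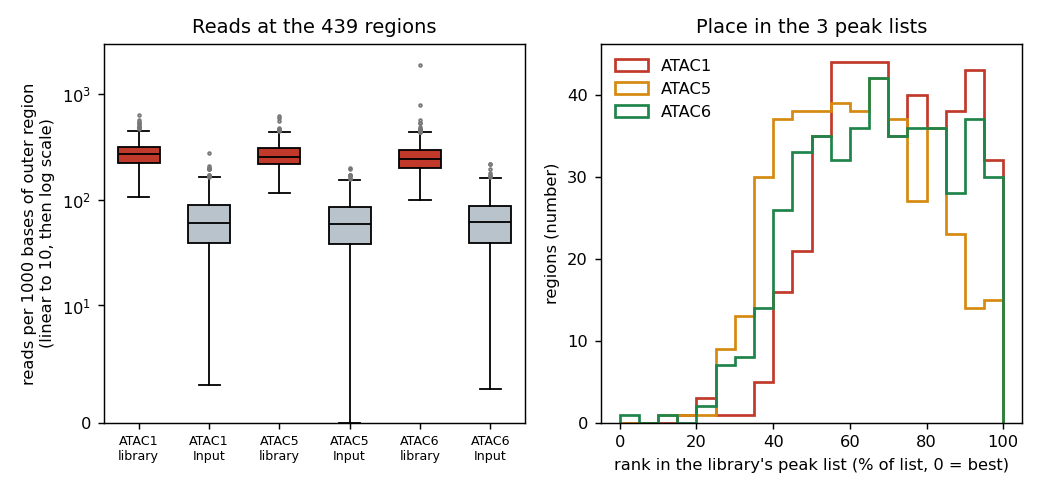
Left, reads per 1000 bases of outer region (y axis, log scale above 10) of the library (red) and of Input (grey) for the best-ranked peak of each of the 439 regions, with boxes over the middle quartiles, the median as a line, whiskers to 1.5 box lengths and points beyond. Right, number of regions (y axis) by the rank of that peak in the ATAC1, ATAC5 or ATAC6 list as a percentage of the list (x axis). The library medians lie above the Input medians in all 3 libraries, and most members rank in the lower part of the lists.

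Members had a median width of 287 bases (quartiles 167 and 409), beside 248 over all merged regions. The related sets had 226 (ATAC5 and ATAC6), 307 (ATAC2, ATAC5 and ATAC6) and 331 bases (with both ATAC1 and ATAC2). Members ranged from 26 to 1186 bases and covered 137168 bases in all. They contained 1379 peaks, and 393 members had exactly 1 peak of each library. In 361 members the 3 libraries' peaks had at least 1 base in common, with a median of 64 common bases. In the other 78 the peaks were only chained, each touching a neighbour. Neighbouring members on a chromosome lay a median of 2403627 bases apart, and only 3 neighbouring pairs were within 10000 bases.

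The distance to the nearest peak of ATAC2, ATAC3, ATAC4 or ATAC7 had a median of 3845 bases (quartiles 588 and 17553). It was over 1000 bases in 304 members (69.2%) and over 10000 bases in 151. At the other end, 98 members (22.3%) had such a peak within 500 bases, 20 within 10 bases and 4 directly adjoining. The nearest peak was one of ATAC2 in 211 members. Of the 1308 regions just outside the rule, which had exactly 1 further library, 31 owed it to a peak sharing at most 10 bases, and the median shared length was 123.5 bases.

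The edge of the rule thus ran through some strong promoters. The best-ranked member of all, at the shared start of Gga3 (chr11:115465249-115465689, 441 bases), is an example. Gga3 encodes a Golgi adaptor for cargo sorting, and the region lies in the divergent gene Mrps7, which encodes a protein of the mitochondrial ribosome. It held 238 reads against 59 Input reads in ATAC1, 729 against 148 in ATAC5 and 622 against 102 in ATAC6. An ATAC3 peak lay 4 bases away, and all 4 other libraries had a peak at the same start site. The Timm9 member (chr12:72237417-72237643), at the gene for a chaperone of mitochondrial protein import, was 8 bases from an ATAC2 peak in the same way. It had 132, 155 and 168 reads in ATAC1, ATAC5 and ATAC6, against 28, 40 and 40 Input reads. For these members the peaks of the other libraries covered neighbouring bases of the same promoter.

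Promoters made up 185 of the 439 members (42.1%, 95% Wilson interval 37.6 to 46.8%), counted as a centre within 1000 bases of an annotated start site. The share was 40.0% over all merged regions. It was 41.5% (38.4 to 44.6%) in the regions that ATAC2 shared as well, 32.1% (29.5 to 34.9%) in those of ATAC5 and ATAC6 alone, and 19.5% (18.2 to 20.9%) in those of ATAC2, ATAC5 and ATAC6. The regions of all 7 libraries stood at 85.7%. The members' interval included the share of all regions and did not overlap those of the sets with ATAC5 and ATAC6 but without ATAC1. Intervals cover counting error only, and regions are not replicates.

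That order among the 4 sets was kept, though at other levels, when weaker peaks were dropped before merging. With folds of at least 5, the promoter share was 65.2% (61.7 to 68.6%) in 727 regions of ATAC1, ATAC5 and ATAC6 and 26.0% (24.6 to 27.4%) in 3759 of ATAC2, ATAC5 and ATAC6. With the same number of best-ranked peaks from each list, it was 67.3% (57.7 to 75.7%) of 101 against 29.6% (25.5 to 34.02%) of 433. The closeness to all regions was not kept, since these stood at 39.3% in the first case and 57.5% in the second. Which regions are members depends strongly on this choice: 222 of the 439 were retained in the first case and 39 in the second.

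The median distance from a member's centre to the nearest start site was 2150 bases. It was 2462 bases with ATAC2 as well, 4649 for ATAC5 and ATAC6 alone, 11855 for ATAC2, ATAC5 and ATAC6 and 3252 over all regions. Of the members, 114 were within 250 bases, 71 between 250 and 1000, 134 between 1000 and 10000, and 99 between 10000 and 50000 bases away. Only 7 were more than 100000 bases away. The X chromosome held 9 members, 2.05% (1.08 to 3.85%), beside 1.99% of all regions.

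**Figure D3:**
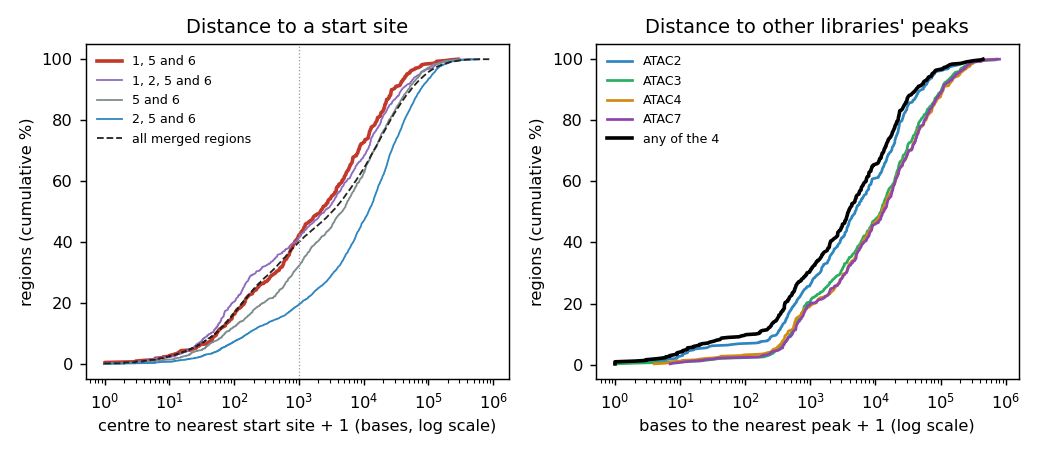
Left, cumulative percentage of regions (y axis) by the distance of the centre to the nearest start site plus 1 base (x axis, log scale) for the members (red), 3 related sets and all merged regions (dashed), with a dotted line at the 1000-base limit. Right, the same for the distance of the 439 members to the nearest peak of each library without a member peak, where the black line rises from 98 regions within 500 bases to 288 within 10000. The red curve follows that of all regions near the limit, where 42.1% of members have been passed, and the curve of ATAC2, ATAC5 and ATAC6 stays below it.

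**Figure D4:**
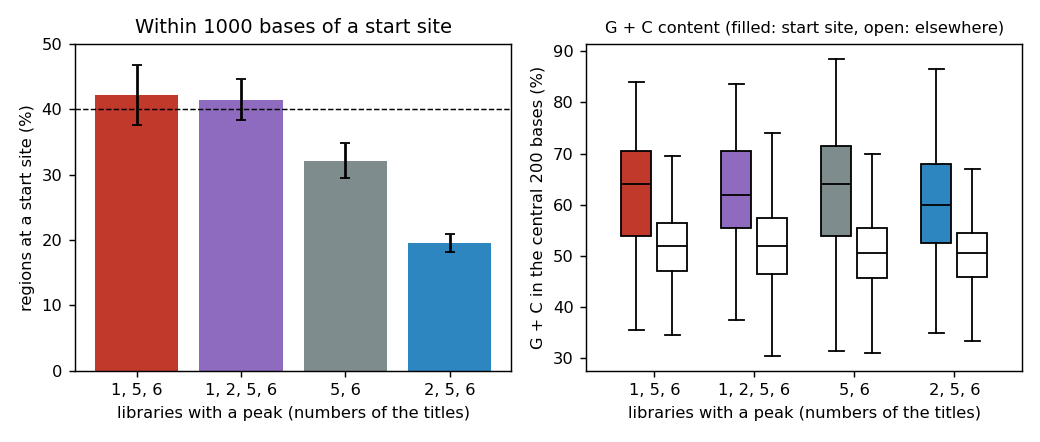
Left, percentage of regions within 1000 bases of a start site (y axis) for the members and 3 related sets (x axis, numbers of the libraries), with 95% Wilson intervals as bars and the 40.0% of all regions dashed. Right, G + C percentage of the central 200 bases (y axis) for regions at a start site (filled) and elsewhere (open), with boxes over the middle quartiles, medians as lines and whiskers to 1.5 box lengths. The members' promoters have a median of 64% and their other regions 52.0%.

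Promoter members were split by whether another library had a peak centred within 1000 bases of the same start site, as is meant here by a peak at a start site. At 103 of the 185 (55.7%) no other library had one, at 82 at least 1 other library did, and at 49 all 4 did. The centre was within 250 bases of the start site in 83 of the 103 (80.6%) and in 31 of the 82 (37.8%). The median distances were 78 and 481.5 bases, and the median G + C contents 68.5% and 58.25%. These differences are descriptions: a member shares no base with another library's peak, so where such a peak sits at the start site, the rule itself places the member beside it. Of all promoter members, 64 were upstream of the start site and 121 at or downstream of it.

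The best-ranked promoters without another library's peak were those of Exosc2, Dynlt1a, Insl6 and Qtrt1. The Exosc2 promoter, printed above, was centred 13 bases upstream of the gene for a subunit of the RNA exosome. It held 126 reads against 27 Input reads in ATAC1, 109 against 27 in ATAC5 and 116 against 27 in ATAC6. The nearest other peak was 17386 bases away, and the folds of 5.73, 6.91 and 6.76 were close to each other.

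Dynlt1a encodes a light chain of cytoplasmic dynein and has close copies near by on the chromosome. The central 30 bases of the member occur once in the assembly. The copy number of its other bases, and whether reads of other copies were placed there, was not tested. The member (chr17:6317419-6317526) was centred 2 bases from the start site and 111712 bases from the nearest peak of another library, with 119 reads against 18 Input reads in ATAC1, 104 against 17 in ATAC5 and 188 against 22 in ATAC6. Insl6, an insulin-like peptide gene, had 135, 149 and 172 reads against 46, 54 and 54 Input reads. Qtrt1, for an enzyme that modifies transfer RNA, had 83, 180 and 192 reads against 36, 79 and 76. In both the folds were low, from 3.60 to 5.01 for Insl6 and from 2.83 to 3.98 for Qtrt1. Dynlt1a had the higher folds of the 3 genes, from 8.12 to 13.4.

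The next promoters in order were similar. Ubl7 had 100, 102 and 94 reads against 27, 32 and 29 Input reads. Map2k5, encoding the kinase that activates ERK5, had 160, 122 and 133 reads against 54, 53 and 52, and Unc119, for a lipid-binding chaperone, 104, 139 and 152 against 34, 38 and 36. None of these 3 start sites had a peak of another library. Eif4e3, a relative of the cap-binding protein eIF4E, had 148, 217 and 168 reads against 71, 87 and 76 at chr6:99616551-99616823, with the nearest other peak 137565 bases away. Mrpl48, for a protein of the mitochondrial ribosome, had 128, 205 and 184 reads against 42, 51 and 66, and there all 4 other libraries had a peak at the start site.

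Among the best-ranked members, Pnpla6, D6Wsu163e and Adck4 were beside peaks of other libraries. Pnpla6 encodes a phospholipase, and its member was 5 bases from an ATAC4 peak, with 77, 156 and 175 reads against 14, 27 and 27 Input reads. D6Wsu163e had 171, 157 and 144 reads against only 12, 12 and 11, so its folds of 17.5, 22.4 and 20.6 were the highest of the 10 best-ranked members in ATAC1 and ATAC6. An ATAC2 peak lay 12 bases from it. The Adck4 member, at a gene for coenzyme Q synthesis, was 991 bases upstream and 21 bases from an ATAC7 peak, with 176, 475 and 410 reads against 20, 36 and 36. It is the printed sequence with AP-1 letters at 2 places.

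The second-ranked member was an exception to all of this. It lay between genes at chr6:3151466-3151597, 183474 bases from the start of Samd9l and 245953 bases from the nearest peak of another library. It held 215 reads against 71 Input reads in ATAC1, 248 against 68 in ATAC5 and 963 against 74 in ATAC6, where it ranked 68th of 28969 peaks. The fold was 3.72, 6.25 and 20.5 in these libraries, so ATAC6 stood far above the others. Its printed sequence looks like part of the 18S ribosomal RNA gene, a gene of long tandem arrays, but this is background knowledge, and no ribosomal reference was compared here. Its central 30 bases occurred once in the assembly. Whether reads of other copies were placed there was not tested.

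Away from promoters lay 254 members. They lay between genes in 127 cases (50%), beside 47.8% of all such regions, and in introns in 113 (44.5%), beside 48.1%. They lay in coding exons in 8 cases (3.15%, beside 1.71%) and in other exons in 6. Their median distance to a start site was 8650.5 bases, beside 18016 for ATAC2, ATAC5 and ATAC6, 11829.5 with ATAC1 as well, 11680 for ATAC5 and ATAC6 and 14326 for all such regions. G + C in the central 200 bases had a median of 52.0%, against 50% over all regions away from promoters. At promoters the medians were 64% for the members and 63% for all. Over all members the median was 55.5%, as in the set with ATAC2, beside 51.5% in the set of ATAC2, ATAC5 and ATAC6.

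Peak height did not set these sets apart in one way. In ATAC5, the members away from promoters held a median of 242 reads per 1000 bases, against 234 in the regions of ATAC2, ATAC5 and ATAC6, 277 in those with both ATAC1 and ATAC2 and 231 in those of ATAC5 and ATAC6. Input density over the same stretches was 47.8, 36.1, 42.3 and 42.4. The members' folds were the lowest, with a median of 8.40 against 11.1, 11.2 and 9.28. In ATAC6 the folds were 7.34 for the members, 10.3, 9.27 and 8.23. Higher Input thus went with the members, and its part in the calls was not tested.

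Motif letters were searched on both strands in the central 200 bases of every region. The letters were TGANTCA for AP-1, TGTGGTT for Runx, CCGGAAG for ETS, GAGGAAG for PU.1, AGATAAG for GATA, TTGCNNAA for C/EBP, CCCNNGGGA for EBF, GGAATG for TEAD, CAGCTG for an E-box and TGACGTCA for CRE. They were GGGCGG for a GC box, ACAATGG for Sox, CTANNNNTA for MEF2, TTGGCA for NFI and TTCNNNGAA for STAT, with a 12-letter consensus for CTCF. ETS and PU.1 letters can overlap at their last bases, and each motif was counted on its own. N stands for any base.

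AP-1 letters were scarcer and CTCF letters more frequent in the members than in all regions away from promoters. AP-1 letters were found in 34 of 254 members (13.4%, 9.74 to 18.1%), against 23.3% of all 30406 such regions. The share was 32.0% (30.3 to 33.8%) in the regions of ATAC2, ATAC5 and ATAC6, 21.4% (18.2 to 25.02%) with ATAC1 and ATAC2 both, and 21.6% (18.9 to 24.6%) in those of ATAC5 and ATAC6. The members' interval did not overlap any of these, but it overlapped that of the regions called in all 7 libraries, at 18.1% (16.0 to 20.3%). CTCF letters were found in 24 members (9.45%, 6.43 to 13.7%), against 3.78% of all such regions and 2.73% (2.18 to 3.41%) in the regions of ATAC2, ATAC5 and ATAC6. Here the members were near the regions of ATAC5 and ATAC6, at 9.46% (7.61 to 11.7%), and those with ATAC1 and ATAC2 both, at 7.68% (5.75 to 10.2%). The members' share of AP-1 letters was thus below the intervals of the 3 related sets, and their share of CTCF letters was above that of ATAC2, ATAC5 and ATAC6 only. No member held both.

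Both patterns were also seen with other peaks. With folds of at least 5, AP-1 letters were in 13.8% (10.1 to 18.6%) of 253 regions of ATAC1, ATAC5 and ATAC6 and 32.5% (30.8 to 34.3%) of 2783 of ATAC2, ATAC5 and ATAC6. CTCF letters were in 7.11% (4.55 to 10.96%) and 2.66% (2.12 to 3.33%). In the 204 members away from promoters and more than 1000 bases from other libraries' peaks, the shares were 12.7% and 10.3%. In a window of 400 bases, AP-1 letters were in 18.9% of members away from promoters against 34.4% of all such regions, and CTCF letters in 14.6% against 5.22%.

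**Figure D5:**
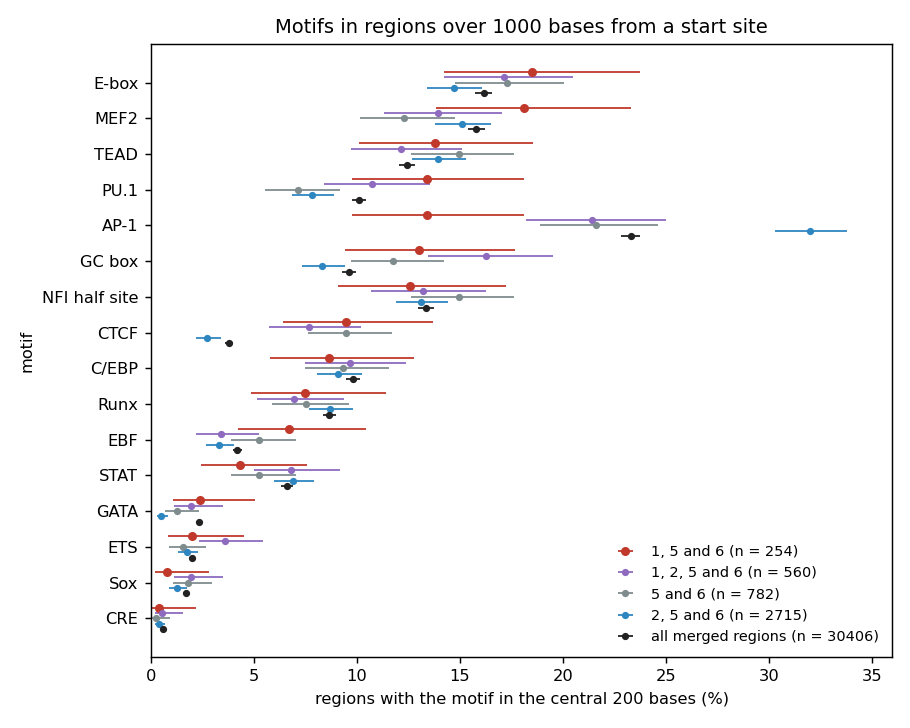
Percentage of regions more than 1000 bases from a start site (x axis) that held each motif (y axis) in the central 200 bases, for the members (red, 254 regions), 3 related sets and all merged regions (black), with 95% Wilson intervals for counting error. AP-1 letters were in 13.4% of members and 32.0% of the regions of ATAC2, ATAC5 and ATAC6, and CTCF letters in 9.45% and 2.73%.

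Of the other 14 motifs, 13 had an interval that included the share of all regions away from promoters, EBF being the exception. E-box letters were in 18.5% of the members away from promoters (14.2 to 23.7%) against 16.1% of all such regions, MEF2 letters in 18.1% against 15.8%, TEAD letters in 13.8% against 12.4% and Runx letters in 7.48% against 8.67%. PU.1 letters stood at 13.4% (9.74 to 18.1%) against 10.1% and GC boxes at 12.99% (9.40 to 17.7%) against 9.60%. EBF letters stood at 6.69% (4.22 to 10.5%) against 4.18%. The members' PU.1 interval lay above those of ATAC2, ATAC5 and ATAC6 (6.86 to 8.88%) and of ATAC5 and ATAC6 (5.56 to 9.19%). Their EBF interval lay above that of ATAC2, ATAC5 and ATAC6 (2.67 to 4.02%). So did their GATA interval, 1.09 to 5.06% against 0.280 to 0.818%. All of these overlapped the intervals of the set with both ATAC1 and ATAC2. At promoters, GC boxes were in 74 of 185 members (40.0%, 33.2 to 47.2%), beside 46.4% of all promoter regions and 63.1% of those called in all 7 libraries. ETS letters were in 8.65% of promoter members (5.39 to 13.6%), beside 8.32% and 14.2%. In both motifs the members' promoters were thus closer to promoter regions in general than to those open in every library.

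Of the 24 CTCF members away from promoters, 14 were between genes and 9 in introns. More than 1000 bases from any peak of another library were 21, beside 204 of all 254 members away from promoters. The median distance of the 24 to a start site was 9137.5 bases. The printed region in an intron of Lmtk3, nearest to the start of Cyth2 at 12349 bases, held 74 reads against 19 Input reads in ATAC1, 163 against 31 in ATAC5 and 79 against 24 in ATAC6. It was 1043 bases from an ATAC2 peak. The 47-base member 31401 bases upstream of Ly6e, also printed, held 44, 53 and 38 reads against 14, 13 and 13. No other library had a peak within 31333 bases. The Cyth2 member, like those near Dtnbp1 and Zfp36l2 that follow, was picked as a best-ranked member away from promoters after its values had been seen.

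These other well-ranked members away from promoters had moderate counts. The one 28881 bases upstream of Dtnbp1 (chr13:45126322-45126459) held 83, 115 and 98 reads in ATAC1, ATAC5 and ATAC6 against 20, 21 and 22 Input reads, with the nearest other peak 25658 bases away. The one nearest Zfp36l2, 73005 bases from the gene for an RNA-binding protein that destabilises transcripts, held 85, 120 and 55 reads against 16, 23 and 13 and had CTCF letters in its central window. ATAC5 had the most reads in both.

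Genes were assigned by the nearest start site of a protein-coding gene. The members were nearest to 429 of 22238 genes, or 1.93%. Of 184 annotated genes in 10 lists of stromal, skeletal, blood and vessel functions, 5 were among them (2.72%), which is near that background. They were Zfp423 of 20 adipocyte genes, Sox5 and Fgfr3 of 20 chondrocyte genes, Thy1 of 20 stromal and niche genes and Mmp14 of 20 matrix genes. No member was nearest to a gene of the lists for osteoblasts (20), endothelium (20), AP-1 and immediate early genes (20) or the TGF-beta and BMP pathway (20). The same held for 18 haematopoietic genes and 9 sort markers.

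The 5 listed genes had weak to moderate members. Fgfr3 encodes a receptor that restrains chondrocyte proliferation. Its printed promoter, 10 bases upstream of the start site, held 50 reads against 26 Input reads in ATAC1, 133 against 53 in ATAC5 and 91 against 43 in ATAC6. The folds were 2.36, 4.30 and 3.33, low in all 3 libraries, and no other library had a peak within 29045 bases. It holds GC boxes at 2 places.

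Sox5 encodes a partner of Sox9 in cartilage. Its member was in an intron, 78721 bases from the start site and 23622 bases from any other library's peak, with 113 reads against 13 Input reads in ATAC1, 101 against 10 in ATAC5 and 57 against 9 in ATAC6. The folds of 10.7, 17.3 and 9.96 were above the members' medians in all 3 libraries.

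Zfp423, a factor of preadipocyte commitment, had its member 562 bases into the gene, with 91 reads against 45 Input reads in ATAC1, 219 against 91 in ATAC5 and 164 against 67 in ATAC6. Its folds of 2.48, 4.12 and 3.85 were below the medians, and an ATAC2 peak lay 1119 bases away. The printed stretch is 81.3% G and C.

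Thy1, or CD90, is a surface glycoprotein of many stromal cells. Its nearest member was 58784 bases upstream and 82038 bases from any other library's peak, with 63, 160 and 73 reads against 17, 26 and 22 Input reads. ATAC5 was highest there, with a fold of 10.5 against 4.55 in ATAC1 and 5.22 in ATAC6.

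Mmp14 encodes a membrane-bound collagenase of the cell surface. Its member, 729 bases into the gene at chr14:55051097-55051243, held 54, 108 and 100 reads against 14, 26 and 24 Input reads. It was only 2 bases from an ATAC2 peak, at the very edge of the rule.

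Only 9 genes were nearest to more than 1 member, Ly6e to 3 and App, BC034090, Eif4e3, Elac1, Irf2bp2, Lrrc8d, Slc41a2 and Tns1 to 2 each. Ly6e encodes a small membrane-anchored protein of the Ly6 family. Beside the CTCF region, it had a member 12632 bases downstream of its start with 67, 132 and 93 reads against 18, 29 and 30 Input reads. The third lay 21112 bases upstream with 81, 71 and 119 reads against 11, 13 and 14. The central 30 bases of that last member occur 12 times in the assembly, and the copy number of the rest of the region was not tested.

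The 2 Tns1 members, near the gene for a focal adhesion protein, were 605 bases apart and held 39, 53 and 42 reads and 42, 50 and 59 reads. Their Input reads were 9, 14 and 8 in one and 8, 6 and 10 in the other. The 2 members in BC034090 were 1081 bases apart. One of the members near Lrrc8d, a subunit of volume-regulated anion channels, had folds of 91.7, 71.6 and 107.6 from 150, 84 and 69 reads. It had only 2, 2 and 1 Input reads, so the folds rest on very few counts. The App members, in introns of the amyloid precursor gene, held 74, 64 and 59 reads and 72, 82 and 45 reads, and the second had both AP-1 and C/EBP letters.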

How the data were processed

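ATAC-seq peak lists of 7 libraries, titled ATAC1 to ATAC7, were used. The authors placed reads on mm9 by bowtie, and CisGenome in two-sample mode compared every library with Input (p limit 1e-05, FDR under 0.01). A shift for Tn5 and removal of duplicates are not given in the sources used here. The effect of a shift on membership was not tested. The deposited tables have no header. Their columns were identified from the values: ranks, coordinates, a non-negative ranking signal, whole-number read counts of library and Input in an outer region, and the authors' fold, a ratio with an offset of 0.01 on the Input reads. Reads in lists summed to between 3437628 and 8766021 per library; total library depth is not known.

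Peaks were merged at 1 shared base, and regions with peaks of exactly ATAC1, ATAC5 and ATAC6 were kept; bedtools 2.31.1 gave the same 439 of 50683. Where a library had several peaks in a member, the best-ranked gave the values of single members. Merging and nearest-gene steps were tested on simulated data. Start sites and sequences came from NCBIM37 (mm9) with GENCODE vM1. Coordinates are as deposited, and a start may differ by 1 base if counted from 0. Computations used Python 3.11.15 (pandas 2.3.3, numpy 2.4.6, scipy 1.17.1), and plots matplotlib 3.10.9. Named members are the 10 with the lowest mean rank, the next 5 at promoters, those at the rule's edge, those of genes with several members and those nearest a listed gene. The members, lists and motifs were chosen with earlier results of these data known. Separate coordinate lists were not used. A result on 1 named member is not reported here.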

Additional observations from a re-analysis of the deposited data

How the results depend on the processing

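No paired analysis was possible because 1 library stands for every title, and for the same reason no library could be left out as a replicate. The number of members was 439 as reported, 727 with folds of at least 5 (222 of the 439 kept), 101 with equal peak numbers per list (39 kept) and 1385 without ATAC2 in the rule, while 9 other settings stayed within 1.5 times of it. The promoter share of 42.1% was 36.7% with peaks within 500 bases merged, 37.1% with outer regions merged, 65.2% with folds of at least 5, 67.3% with equal peak numbers and 32.9% in members over 1000 bases from other libraries' peaks. It was 31.0% with start sites within 500 bases and 51.7% within 2500. The median distance to a start site, 2150 bases, was 3513, 175, 178 and 4626 bases with 500-base merging, with folds of at least 5, with equal peak numbers and in the members over 1000 bases from other peaks. With 100 and 400 bases searched, and away from promoters, the share of members was 5.69%, 15.3% and 13.4% for AP-1 (10.02% as reported), 3.64%, 9.79% and 9.45% for CTCF (5.69%), 15.03%, 39.0% and 12.99% for GC boxes (24.4%) and 2.28%, 9.79% and 1.97% for ETS (4.78%). Wider windows hold more letters by construction. Among the 33 regions away from promoters left with equal peak numbers, AP-1 letters were in 2 (6.06%, 1.68 to 19.6%). CTCF letters were in 5 of them (15.2%, 6.65 to 30.9%). In the set of ATAC2, ATAC5 and ATAC6 the shares were 36.4% (31.2 to 41.9%) and 3.61% (2.03 to 6.34%). The AP-1 interval overlapped that of ATAC5 and ATAC6 (16.1 to 30.7%) in this setting. The cause of the other shifts was not tested. The limit of over 1000 bases from other peaks, and the motif shares under other peak choices, were chosen after seeing the data. In all, 38 of 66 recomputed values stayed within the limits. What limits these results is that peak lists were used here and not reads: a library without a peak may still have reads there, and libraries differed in depth. Membership of single regions changed more than the order of the members and the set of ATAC2, ATAC5 and ATAC6 by promoter, AP-1 and CTCF shares, which was kept with folds of at least 5 and with equal peak numbers.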
